A study of Mus musculus with 2 samples.

Results

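The 10 genes described here encode the type 1 cytokines and inflammatory chemokines by which a CD8 T cell acts on its surroundings: Ifng (interferon-γ), Tnf (tumour necrosis factor), Lta and Ltb (the lymphotoxin subunits α and β), Csf2 (GM-CSF), Il2 (interleukin-2), Xcl1 (lymphotactin) and the CC chemokine genes Ccl3, Ccl4 and Ccl5. They were chosen by name from 23462 genes with a RefSeq symbol on the array, with earlier results of these data known. Every one of their 13 probes, of 56605 in all, was used. Expression was measured on 2 one-colour Agilent arrays of CD8 T cells taken from C57BL/6 mouse spleen. Naive cells (CD44 low, CD62L high) were stimulated for 2 days on plates coated with antibodies to TCR-β (3 µg/ml) and CD28 (1 µg/ml), with interleukin-2 at 10 ng/ml in the medium. One culture received prednisolone, a synthetic glucocorticoid, at 1 µM during the stimulation, and the other was the vehicle control. Both were transferred to fresh plates for another 3 days in interleukin-2 at the same concentration, and RNA was taken on day 5. The comparison asks which differences in these transcripts were present after that second period, for which no addition of the drug is described. There was 1 array per group, so no difference was tested between cultures. RNA came from whole cultures, so fewer producing cells and less RNA per producing cell cannot be told apart.

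Type 1 effector T cells release interferon-γ and tumour necrosis factor on contact with antigen, mostly from transcripts that are made anew when the receptor is engaged. The lymphotoxin subunits assemble into a membrane complex that acts on stromal cells of lymphoid tissue. XCL1 attracts cross-presenting dendritic cells, and CCL3, CCL4 and CCL5 attract effector T cells and myeloid cells. Glucocorticoids act through a nuclear receptor that restrains the transcription factors AP-1 and NF-κB, which with NFAT drive many of these genes.

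With prednisolone the members did not move as a block. Ifng, Csf2 and Xcl1 were 5.71-fold to 7.04-fold lower, Lta and Ltb were 2.66-fold and 2.54-fold lower, Ccl5 was 4.97-fold higher, and Tnf, Ccl3 and Ccl4 lay within 2-fold. Il2 gave no signal well above background. At least 2-fold lower signals were thus seen for 5 of the 9 measured members, where the share over all 14132 genes with a value was 7.93%. A single member of the 9, Ccl5, was at least 2-fold higher, where the share over all genes was 6.91%. The median log2 difference, prednisolone minus vehicle, was −1.34 over the 9 members and 0.0032 over the 12901 genes measured on both arrays. Since the members were chosen with earlier results of these data known, these counts and medians are descriptive only.

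All differences below are on the log2 scale after each array was divided by its 75th percentile. After an intensity, ± is the error that the scanner software assigns to that spot. After a difference, ± combines these errors over both arrays and over the spots and probes used, taken as independent. The combined error is thus smaller for genes with more spots. That error is technical and says nothing of the spread between cultures. Both arrays had 53.5% of their spots well above background and no saturated spot. Among the 13 member probes, 5 carried an outlier flag of the software on at least one array: those of Lta, Csf2, Xcl1 and Ccl3 and 1 of the 2 probes of Il2. Each of these flags concerned the local background around the spot and none the spot itself. The flagged spots were kept here, and without them 4 members have no value. Spots within 10 rows and columns of a member's spot had median differences between −0.11 and 0.04. Scaling on the spike-in controls, whose mean difference was −0.24, adds 0.24 to every value. Of the genes 2-fold or more apart, 46.6% were higher, and that share became 68.0% with spike-in scaling.

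**Figure D1:**
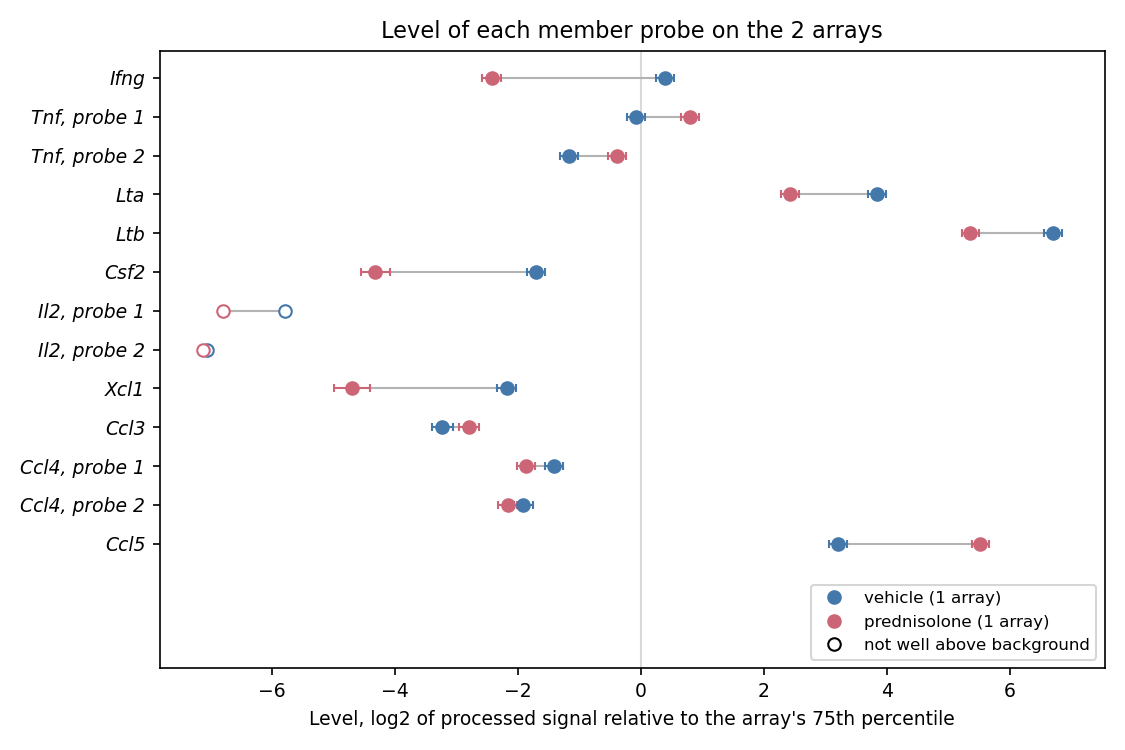
Level of each of the 13 member probes on the vehicle array (blue) and the prednisolone array (red), as log2 of the processed signal relative to that array's 75th percentile, with the software's error as bars. Open circles are spots not well above background. The prednisolone points of Ifng, Csf2, Xcl1, Lta and Ltb lie to the left of the vehicle points, that of Ccl5 lies to the right, and both Il2 probes sit at the dim end. Positions of different probes are not comparable with each other.

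Ifng, the signature cytokine gene of type 1 immunity, had the lowest difference of the members. Its single probe read 524 ± 52.5 intensity units on the vehicle array and 71.9 ± 7.56 on the prednisolone array. The signal was thus above the 75th percentile of all spots with vehicle (0.39) and clearly below it with prednisolone (−2.43). The difference was −2.82 ± 0.21, the 33rd lowest of the 12901 measured genes. It was −2.13 after another background correction (normexp), which adds a constant to every spot and draws dim signals together. Of the 3 protein-coding genes on each side of Ifng, Il22, another cytokine gene, was seen on 1 array only and has a bound under 2-fold, Mdm1 was −0.25 ± 0.21 and Dyrk2 −1.22 ± 0.20 (−0.98 with spike-in scaling). Both chains of the interferon-γ receptor were lower by less than 2-fold, Ifngr1 by −0.60 ± 0.20 and Ifngr2 by −0.77 ± 0.20. Receptor genes named with a member here were picked as its receptors after their values were seen, apart from Il2ra, which the rule for named genes gave.

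Genes that respond to interferon-γ, many of which also respond to type I interferon, did not follow Ifng as a group. Of 26 with a value, 4 were at least 2-fold lower and 1 was higher, and the median was −0.26, or −0.02 with spike-in scaling. The lower genes included the peptide transporter gene Tap1 (−1.21 ± 0.14), the GTPase gene Iigp1 (−1.19 ± 0.20) and, outside the rule for named genes, Gbp6 (−1.03 ± 0.20). With spike-in scaling Tap1 was −0.97 and Iigp1 −0.95, and the count of lower genes was 1. Socs1, which encodes a feedback inhibitor of cytokine receptors, was 2.25-fold higher (1.17 ± 0.20).

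Csf2 encodes GM-CSF, a growth and activation factor for myeloid cells. The probe read 122 ± 12.5 intensity units with vehicle and 19.3 ± 3.15 with prednisolone, a difference of −2.62 ± 0.28. The prednisolone signal was dim. It exceeded the 95th percentile of the 308 negative control spots of that array (4.35) but not the brightest of them (31.5). After normexp the difference was −1.13, and from the spot's median brightness minus its local background it was −2.19. The neighbouring gene Il3, a related myeloid growth factor, was −0.32 ± 0.33, so no difference beyond the error was seen there. Il3 was dim on both arrays, with scaled log2 levels of −4.01 with vehicle and −4.34 with prednisolone. Its vehicle level was already near that of Csf2 with prednisolone (−4.33). A drop as large as that of Csf2 could thus not have been measured for Il3. P4ha2, also near Csf2, was −1.46 ± 0.20. The α chain gene of the GM-CSF receptor, Csf2ra, was 0.46 ± 0.20 and the shared β chain gene Csf2rb was 0.30 ± 0.28.

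Il2 encodes the growth factor that was also present as protein in both cultures throughout. Its probes read 7.23 and 2.98 intensity units with vehicle and 3.47 and 2.76 with prednisolone. The lowest signals called well above background were 12.8 and 11.7 on the respective arrays, so the transcript was not detectable and has no difference here. The chains of the interleukin-2 receptor were measured. Il2ra, the high-affinity chain, was 2.04-fold higher (1.03 ± 0.20, or 0.98 with no scaling), whereas Il2rb was 0.06 ± 0.14 and Il2rg −0.06 ± 0.20. Among 15 targets of interleukin-2 and its transcription factor STAT5, 5 were higher by 2-fold or more, 2 were lower by as much, and the median was 0.07. Socs2, a feedback inhibitor gene, was 4.42-fold higher, the cyclin D2 gene Ccnd2 2.64-fold and the cytokine gene Osm 2.31-fold (under 2-fold after normexp, at 0.88). The survival kinase gene Pim2 was 3.80-fold lower and the transcription factor gene Nfil3 3.15-fold lower.

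Tnf, Lta and Ltb lie next to each other in the major histocompatibility complex, in the order Ltb, Tnf, Lta, and the middle gene differed in direction from its flanks. The first Tnf probe read 377 ± 37.8 intensity units with vehicle and 674 ± 67.4 with prednisolone. The second read 177 ± 17.9 and 296 ± 29.7. Both were brighter with prednisolone, by 0.89 ± 0.20 and 0.79 ± 0.21, and the gene's difference of 0.84 ± 0.14 was under 2-fold (1.08 with spike-in scaling, which is above it). Lta, whose product is secreted alone or joins lymphotoxin β, read 5742 ± 574 with vehicle and 2083 ± 208 with prednisolone, a difference of −1.41 ± 0.20. Ltb, which encodes the membrane anchor of that complex, read 41718 ± 4172 and 15886 ± 1589, a difference of −1.34 ± 0.20. The Lta and Ltb signals were bright, and both were at least 2-fold lower under each of the other settings that gave a value, 10 for Lta and 11 for Ltb, with spike-in scaling nearest to 0 (−1.17 and −1.10). Beyond the trio, Lst1 (−0.78 ± 0.20) and Aif1 (−1.04 ± 0.23, within 2-fold under 5 other settings) on one side and Nfkbil1 (−0.81 ± 0.20) on the other were also below 0, and Atp6v1g2 was 0.19 ± 0.19.

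**Figure D2:**
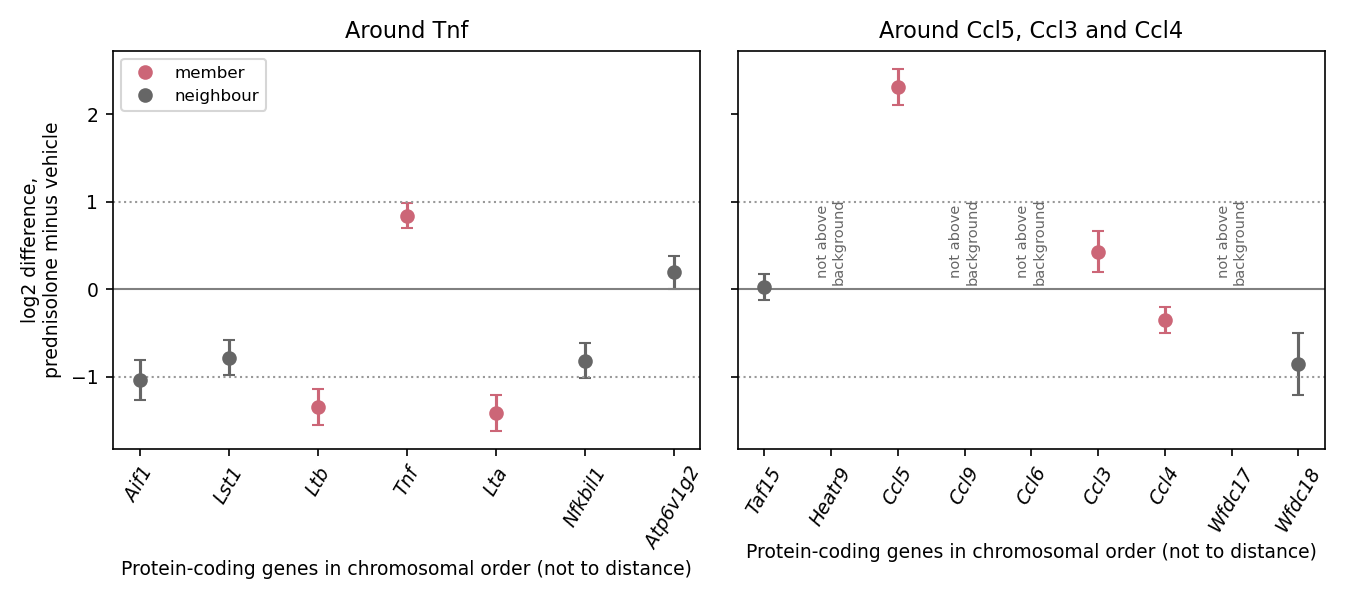
Log2 difference, prednisolone minus vehicle, of members (red) and their protein-coding neighbours (grey) in chromosomal order, not to distance, with the scanner software's error as bars. Left, Tnf at 0.84 stands between Ltb at −1.34 and Lta at −1.41. Right, Ccl5 at 2.31 lies near Ccl3 at 0.43 and Ccl4 at −0.35, with genes not well above background between them.

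The measured receptor genes of these ligands lay within 2-fold. The TNF receptor genes Tnfrsf1a (−0.79 ± 0.15) and Tnfrsf1b (0.61 ± 0.20) lay on opposite sides of 0, Tnfrsf14, the gene of a receptor for lymphotoxin α and LIGHT, was −0.57 ± 0.15 and Ltbr was not well above background. None of 10 measured genes for shedding and release of these proteins was 2-fold apart, and the one farthest from 0 was Stxbp2, a gene of granule fusion, at −0.38 ± 0.14. Adam17, which encodes the protease that releases TNF from the membrane, was −0.21 ± 0.16 and is named outside the rule. Among the other ligands of the TNF superfamily 3 of 9 were at least 2-fold lower and none higher (1 with spike-in scaling): Fasl, the death ligand gene (−1.98 ± 0.20), Tnfsf11, the gene of RANKL (−1.68 ± 0.20, or −0.71 after normexp), and Tnfsf14, the gene of LIGHT (−1.02 ± 0.20, within 2-fold under 5 other settings). Of 18 genes that respond to TNF and NF-κB, 6 were at least 2-fold lower and none higher. The median of the 17 measured on both arrays was −0.65. Relb, an NF-κB subunit gene, was −1.74 ± 0.15 and Traf1, which encodes a signalling adaptor, −1.70 ± 0.20. Cd83 was well above background with vehicle alone and at least 3.74-fold lower, a bound set by the lowest signal called well above background on the other array, and after normexp it was −0.63.

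Xcl1 had the lowest difference of the 4 chemokine genes among the members. The probe read 87.9 ± 9.23 intensity units with vehicle and 14.9 ± 3.03 with prednisolone, a difference of −2.51 ± 0.33. This is the least certain of the members 2-fold apart: the prednisolone spot was close to the limit of 11.7 for being well above background, it lay in row 1 of the array's 384 rows, and its local background was flagged on both arrays. After normexp the difference was −0.88, under 2-fold, and from the median brightness minus local background it was −1.87. Its receptor gene Xcr1, a dendritic cell gene, was not detected well above background.

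Ccl5 was the only member at least 2-fold higher. Its signal went from 3709 ± 371 intensity units with vehicle to 17800.4 ± 1780 with prednisolone, a difference of 2.31 ± 0.20 and the 88th highest of the measured genes. It stayed between 2.26 and 2.55 under all 11 other settings. Memory and effector CD8 T cells are known to keep Ccl5 transcript in store without renewed stimulation. Ccl3 read 42.7 ± 5.13 with vehicle and 55.5 ± 6.15 with prednisolone, a difference of 0.43 ± 0.24. The Ccl4 probes read 149 ± 15.2 and 106 ± 11.0 with vehicle and 106 ± 10.9 and 86.0 ± 8.94 with prednisolone. They were both dimmer with prednisolone, by −0.45 ± 0.21 and −0.26 ± 0.21, and the gene's difference was −0.35 ± 0.15. Ccl3 and Ccl4 lie side by side on the chromosome near Ccl5, and neither was 2-fold apart under any of the settings that gave a value. Of their receptor genes, Ccr1 and Ccr3 were not well above background.

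**Figure D3:**
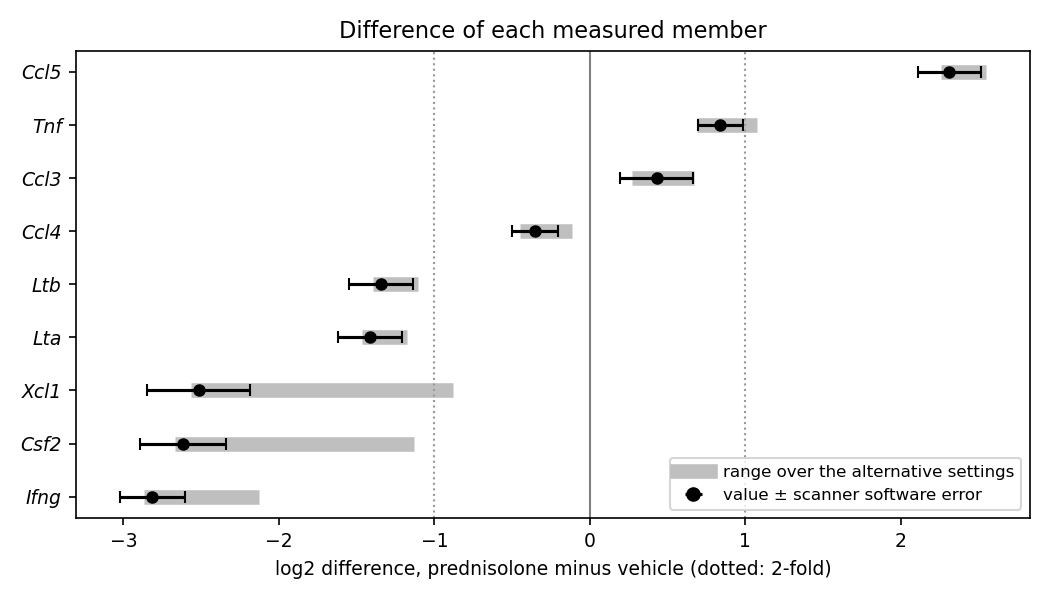
Log2 difference, prednisolone minus vehicle, of the 9 measured members, ordered from Ccl5 at 2.31 to Ifng at −2.82. Black points and bars are the value and the scanner software's error, grey bars are the range over the other settings, and dotted lines mark 2-fold. The grey bars of Xcl1 and Csf2 reach to −0.88 and −1.13, while those of Ccl5, Lta and Ltb are short.

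**Figure D4:**
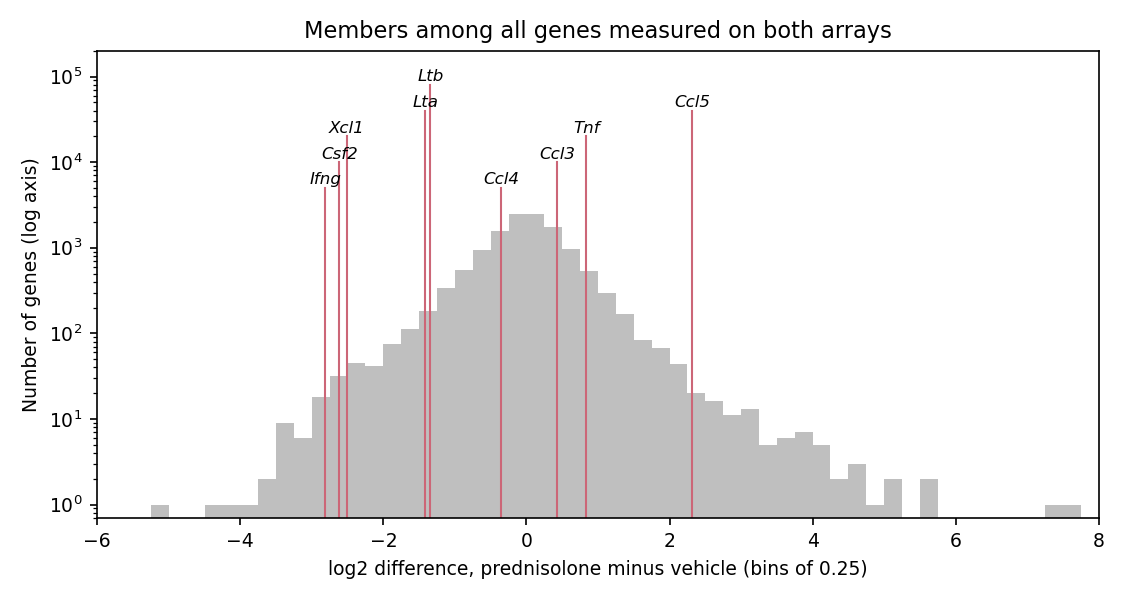
Number of genes, on a log axis, by log2 difference in bins of 0.25, for the 12901 genes measured on both arrays. Red lines mark the members, and their heights carry no value. Ifng, Csf2 and Xcl1 fall in the thin lower tail, Ccl5 in the upper tail and Ccl4, Ccl3 and Tnf in or near the bulk.

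Cell types that also make these products were checked by their markers. All 12 CD8 T cell markers were measured and lay within 2-fold, with a median of −0.40 and Cd3g the farthest at −0.87 ± 0.20. Of 6 NK cell markers, 2 were well above background with vehicle and 4 with prednisolone, and their summed signal was 0.26 and 0.89 times the array's 75th percentile. Ncr1, the defining NK receptor gene, was not among them on either array, while the Ly49 family genes Klra9 and Klra8 were at least 8.28-fold and 6.10-fold higher (1.01 and 0.84 on the log2 scale after normexp) and Klra4 at least 2.09-fold higher (0.24 after normexp). The remaining NK markers with a value did not go that way: Klrb1c was 0.07 ± 0.32, and Klrb1a was seen with vehicle alone, with a bound of −0.27. The part of these markers in the members' differences was not tested. Of 12 myeloid and dendritic markers, 6 and 5 were above background, with summed signals of 13.1 and 11.2, neither Lyz2 nor Adgre1 among them. Cd68 was −2.43 ± 0.15 and Cd74 at least 4.63-fold lower (−0.75 after normexp). The remaining ones measured on both arrays lay within 2-fold: Csf1r at −0.0003 ± 0.15, Itgam at 0.02 ± 0.22 and Fcer1g at 0.08 ± 0.22. Cd14, seen with prednisolone alone, had a bound of 0.14 and Tyrobp, seen with vehicle alone, one of −0.47. Among 8 B cell markers, 3 and 2 were above background, with summed signals of 3.52 and 4.47. Ms4a1 and Cd79a were not. Those with a value differed in direction, with Cd79b at 0.66 ± 0.20, Cd22 at −0.41 ± 0.22 and Vpreb3 at least 17.4-fold lower (−1.89 after normexp). Of the CD4 T cell markers 4 of 5 were measured and lay within 2-fold, with Zbtb7b the farthest at −0.93 ± 0.20. Neutrophil markers were above background for 3 of 7 genes on each array, with summed signals of 3.56 and 2.78. Cxcr2 was at least 5.67-fold higher, while Ly6g was −0.56 ± 0.20, Elane 0.11 ± 0.21 and Mpo, seen with vehicle alone, had a bound of −0.43. Markers of γδ T cells were above background for 2 of 5 genes on each array, Cd163l1 at 1.41 ± 0.20 and Sox13 at −0.16 ± 0.21. For mast cell and basophil markers this held for 2 of 7, Kit at 1.96 ± 0.21 and Tpsb2 at −0.58 ± 0.35. Of 4 erythroid markers with a probe, Hba-a1 was above background, at 3.97 ± 0.05.

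Regulators of the type 1 program also went both ways. Among 19 measured transcription factor genes, 7 were at least 2-fold lower and 2 higher, with a median of −0.67. Eomes, a T-box factor that acts on Ifng, was −2.38 ± 0.20, Irf8 was −2.07 ± 0.20, and Batf3 was 1.43 ± 0.20. Irf4 was 1.23 ± 0.14, with its probes at 0.36 and 2.11. The other T-box factor gene, Tbx21, named after its value was seen, was −0.32 ± 0.20. Stat4, which carries the interleukin-12 signal and is also named outside the rule, was −1.54 ± 0.20. Among 16 receptors that feed the program, Icos (2.31 ± 0.20) and Slamf1 (1.13 ± 0.17, or 0.74 after normexp) were higher and the 4-1BB gene Tnfrsf9 was lower (−2.49 ± 0.14), with a median of −0.54. Of 15 NFAT, AP-1 and NF-κB subunit genes, 2 were higher and 3 lower, and the median of the 13 measured on both arrays was −0.34. Jun was −2.56 ± 0.20, Relb is given above and Rel was −1.14 ± 0.31 (−0.38 after normexp). Nfkb1 was 1.45 ± 0.20. Fos, seen with prednisolone alone, was higher by a bound of 5.88-fold (0.96 on the log2 scale after normexp).

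Of 17 genes listed as inhibitors of NFAT and NF-κB, 6 were higher by 2-fold or more, 2 were lower by as much, and the median was 0.16. The list is broad. It also holds phosphatase genes of MAP kinases and genes of the IκB family whose products can also activate transcription. Its counts thus do not describe inhibitors alone. After normexp 3 of the 17 were higher and 2 lower, and with flagged spots left out the median was 0.50 over 15 genes. Dusp2, a phosphatase gene of MAP kinases, was 1.66 ± 0.20, Tsc22d3, the gene of the glucocorticoid-induced leucine zipper, 1.45 ± 0.14 and Dusp1 1.34 ± 0.20. The lower ones were Dusp4 (−2.05 ± 0.24, with a flagged background, and −1.01 after normexp) and Tnfaip3 (−1.63 ± 0.20). All 16 genes that act on the decay or translation of cytokine transcripts lay within 2-fold, and Pdcd4 was the farthest from 0 at 0.88 ± 0.14 (1.12 with spike-in scaling). Their median of 0.21 was 0.0029 with flagged spots left out, 0.06 after normexp and 0.45 with spike-in scaling. With flagged spots left out 1 of them was at least 2-fold lower, and with spike-in scaling 2 were higher. Zfp36, which encodes tristetraprolin, a protein that binds AU-rich cytokine transcripts, was −0.36 ± 0.20 and is named outside the rule. Over all 16 receptors of the members, 11 were measured, 1 was higher (Il2ra) and 1 lower (none with spike-in scaling), with a median of −0.06, or 0.18 with spike-in scaling. Among the 169 measured genes of these lists, the differences nearest to that of Ifng were those of Jun, Tnfrsf9 and Eomes, and nearest to that of Ccl5 those of Icos, Socs2 (2.15 ± 0.14) and Dusp2. With 1 array per group this likeness rests on a single difference.

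**Figure D5:**
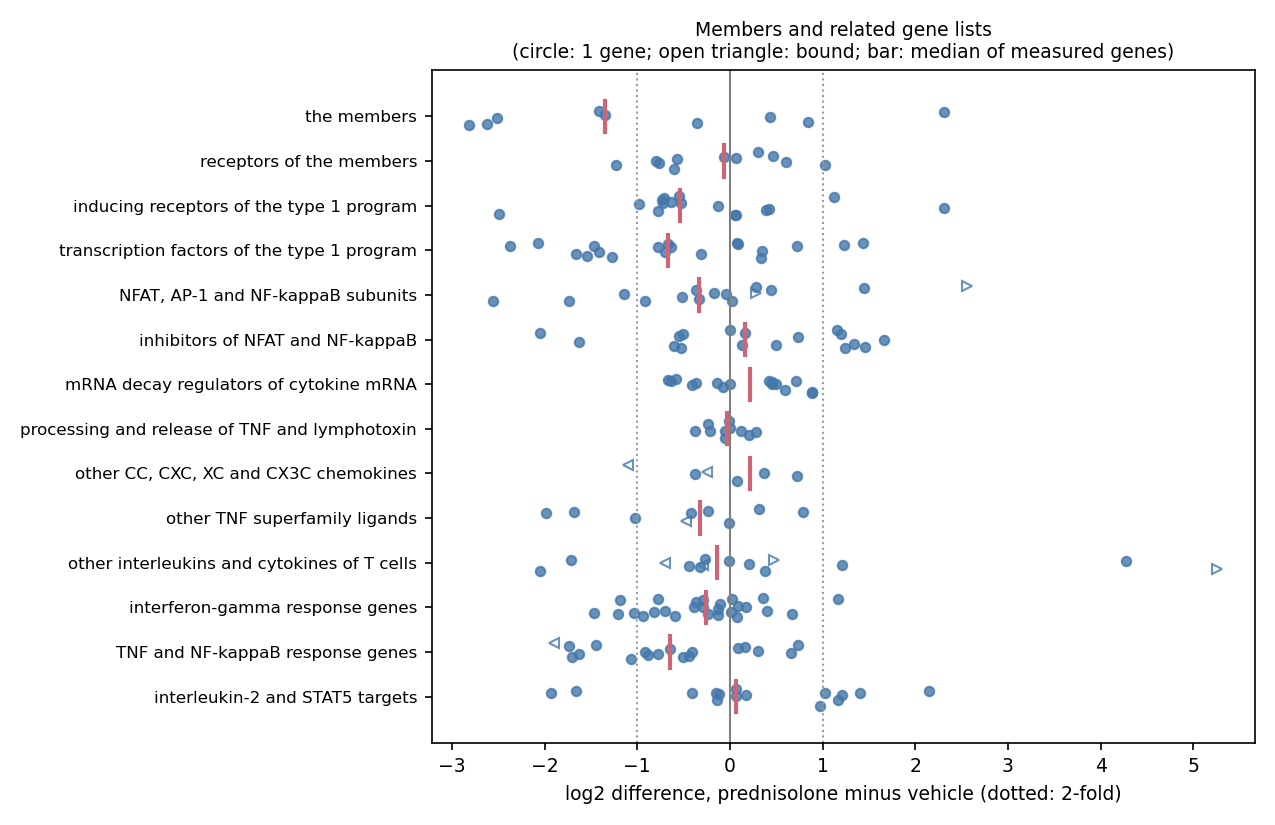
Log2 difference, prednisolone minus vehicle, of the members and of the genes in 13 related lists. Filled circles are genes measured on both arrays, open triangles are bounds pointing away from 0, red bars are the median of the measured genes and dotted lines mark 2-fold. The median of the members is −1.34, and those of the lists lie between −0.67 and 0.22.

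The promoters of the members that were at least 2-fold lower are shown with that of Tnf, which lies between Lta and Ltb and was not lower. They are the 250 bases before the gene's start in RefSeq (GRCm38.p6), 5′ to 3′ on the gene's strand, and 8 of the 10 members were found in the table by symbol. Capitals mark matches, on either strand, to 7 motifs: an NFAT core (GGAAAA), AP-1 (TGANTCA), the NF-κB consensus, a T-box element (AGGTGTGA), the short glucocorticoid element (AGAACA), the palindromic glucocorticoid response element and a TATA box (TATAAA). The palindrome is the short element facing its reverse complement across 3 bases, so each palindrome also holds the short one.
Ifng, chr10:118440796-118441045, + strand: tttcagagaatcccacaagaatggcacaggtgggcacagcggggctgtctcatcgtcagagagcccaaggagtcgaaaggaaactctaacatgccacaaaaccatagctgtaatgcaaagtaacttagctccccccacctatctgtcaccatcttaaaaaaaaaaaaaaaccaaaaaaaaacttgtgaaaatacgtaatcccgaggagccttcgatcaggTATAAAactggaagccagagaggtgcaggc
Csf2, chr11:54249900-54250149, - strand: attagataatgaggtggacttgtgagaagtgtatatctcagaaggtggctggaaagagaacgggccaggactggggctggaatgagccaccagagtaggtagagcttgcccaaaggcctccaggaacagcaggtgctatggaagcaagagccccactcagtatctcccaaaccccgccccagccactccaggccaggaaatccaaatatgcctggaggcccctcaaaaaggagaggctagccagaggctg
Xcl1, chr1:164935523-164935772, - strand: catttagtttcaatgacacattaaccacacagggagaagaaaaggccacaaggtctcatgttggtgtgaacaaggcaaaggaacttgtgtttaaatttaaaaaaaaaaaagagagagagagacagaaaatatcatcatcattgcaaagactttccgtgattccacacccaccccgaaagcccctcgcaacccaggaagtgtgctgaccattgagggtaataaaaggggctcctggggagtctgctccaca
Lta, chr17:35205352-35205601, - strand: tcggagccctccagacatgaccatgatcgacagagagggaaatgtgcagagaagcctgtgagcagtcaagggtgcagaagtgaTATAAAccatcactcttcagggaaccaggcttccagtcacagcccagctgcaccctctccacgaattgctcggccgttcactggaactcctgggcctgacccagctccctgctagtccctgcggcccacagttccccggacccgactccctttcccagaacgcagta
Ltb, chr17:35194257-35194506, + strand: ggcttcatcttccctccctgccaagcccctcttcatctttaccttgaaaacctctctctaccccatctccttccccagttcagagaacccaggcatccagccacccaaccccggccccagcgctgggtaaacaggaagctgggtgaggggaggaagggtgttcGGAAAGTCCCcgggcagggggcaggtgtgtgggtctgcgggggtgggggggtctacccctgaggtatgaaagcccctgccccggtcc
Tnf, chr17:35202008-35202257, - strand: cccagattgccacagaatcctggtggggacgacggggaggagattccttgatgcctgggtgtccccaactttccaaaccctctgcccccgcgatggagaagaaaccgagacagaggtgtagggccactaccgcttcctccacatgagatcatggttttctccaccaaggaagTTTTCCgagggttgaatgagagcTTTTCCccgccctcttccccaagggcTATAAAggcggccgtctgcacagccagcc

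No motif was found in the windows of all 5 lower members. Ltb held an NF-κB match from position −87 to −78 before the start, Ifng and Lta held a TATA box from −30 to −25 and from −167 to −162, and Csf2 and Xcl1 held none of the 7. Tnf held NFAT cores from −78 to −73 and from −55 to −50 and a TATA box from −29 to −24. Of the members not printed, Il2 held NFAT cores at −137 and −48 and a TATA box at −31, and Ccl3 an NFAT core at −60. Over all 32851 promoters of that length, 20.4% held the NFAT core, 6.75% AP-1, 7.25% the NF-κB consensus, 1.12% the T-box element, 16.1% the short glucocorticoid element, 12.4% the TATA box and 0.00913% the palindrome. No member promoter in the table held either glucocorticoid element in this window. A match or its absence describes the letters and not the binding of a factor.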

How the data were processed

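Per the file headers, Agilent Feature Extraction 12.0.3.1 wrote the deposited scanner files, which give each spot's intensity, an error and outlier flags. The processed intensity was background-subtracted and detrended within each array by that software. The authors' value table, also intensity, equals the processed signal times 0.792 (vehicle) and 0.858 (prednisolone). The basis of these constants is not stated in the labels.

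Differences are log2 of the processed signal minus its 75th percentile on that array (400.4 and 386.9 intensity units over 59305 spots that are no controls), prednisolone minus vehicle. Probe accessions, stripped of their version, were looked up in a RefSeq table of GRCm38.p6, which named 33767 probes and left 22838 unnamed. The array's headers name mm9, so no probe coordinates are given, and promoters carry the coordinates of GRCm38.p6. A gene's value is the mean over its probes well above background on both arrays. A gene seen on 1 array only has a bound, which sets its brightest probe against the dim array's lowest signal called well above background, or against the probe's own signal where that is higher, and 1231 genes had one. A difference of at least 2-fold was counted without a test, since there was 1 array per group. The number of arrays limits the precision. Spots with outlier flags were kept (7.20% and 8.92% of spots).

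Members and lists were chosen with earlier results of these data known. The rule for named genes takes all members, up to 3 genes in each direction of a list among those 2-fold apart (otherwise the one farthest from 0), and the 3 list genes nearest to Ifng and to the highest member. Alternatives were 10 planned ones and 1 chosen after seeing the data (median brightness minus local background). Normexp used the median instead of the mean spot signal, with an offset of 50. Tools were Python 3.11.15, R 4.3.3 and limma 3.58.1. The procedure was tested on simulated data, in which differences were put only into genes of middling brightness. That test thus did not cover Csf2, Xcl1, Ccl3 and Ccl4, which were dimmer with vehicle, or Ltb, which was brighter. A few list genes are counted but not reported here by name.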

Additional observations from a re-analysis of the deposited data

How the results depend on the processing

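The direction of all 9 measured members was the same under the 10 planned settings and the added one, where a setting gave a value. Spike-in scaling put 2 members at least 2-fold higher (Tnf at 1.08). After normexp 4 members were at least 2-fold lower, Xcl1 not among them. Leaving out flagged spots removed Lta, Csf2, Xcl1 and Ccl3 and left 2 members at least 2-fold lower, and a stricter filter (processed signal of at least 100 on both arrays) removed Ifng, Csf2, Xcl1 and Ccl3 and also left 2. The members' median of −1.34 became −0.35 and −0.45 under these filters, over 5 members each, −0.94 with no filter on dim probes, which adds Il2, −0.88 after normexp and −1.10 with spike-in scaling. Over all genes, 977 higher and 1121 lower became 902 and 1026 with flagged spots left out and 468 and 481 after normexp. They became 1545 and 727 with spike-in scaling, 1550 and 1831 with no filter, and 488 and 488 with the stricter filter. These are counts and not shares, since the filters also change how many genes have a value. No paired analysis was possible because each group has 1 array. Csf2 and Xcl1 had low signal over background with prednisolone, and for their smaller differences after normexp the cause was not tested.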

Other observations

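Of 14 interleukins and T cell cytokines outside the members with a value, 3 were higher by 2-fold or more, 2 were lower by as much, and the median of those measured on both arrays was −0.14 (0.10 with spike-in scaling). Il4, the type 2 signature cytokine gene, was at least 38.3-fold higher (2.73 on the log2 scale after normexp) and Il10, an immunosuppressive cytokine gene, 19.3-fold higher (4.27 ± 0.31, or 2.27 after normexp), opposite in direction to Ifng. Osm was 1.21 ± 0.15. Spp1, the osteopontin gene, was 4.13-fold lower (−2.05 ± 0.21) and Il24 3.27-fold lower (−1.71 ± 0.29, or −0.65 after normexp). Of 29 other chemokine genes with a probe, 6 had a value, and the median of the 4 measured on both arrays was 0.22. Ccl12, seen with vehicle alone, was at least 2.15-fold lower, a bound that shrank to −0.26 on the log2 scale after normexp.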
